A study of Rattus norvegicus with 14 samples.

Results

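Arthritic rats given 34 days of needle stimulation were compared with healthy rats given the same stimulation, and the quantity described is how far the change from day 0 to day 34 differed between them. It was computed for each probe set as the AP minus RA difference minus the HAP minus NORA difference of the mean log2 signals, so a value above 0 means that the signal went up more, or down less, in the arthritic rats. It rests on 11 of the 14 arrays and on 18515 of 31042 probe sets, the ones brighter than the median probe set on 2 or more of the 14 arrays. The arrays are AP (3), RA (2), HAP (3) and NORA (3), chosen by their titles.

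All samples were peripheral blood mononuclear cells of female Wistar rats, each rat killed when its blood was taken, so the rats of day 0 and day 34 are different animals. NORA are healthy rats before therapy (study code NOCIA_B) and HAP healthy rats after 34 days of stimulation (NOCIAMS_A). RA are rats with collagen-induced arthritis before therapy (CIA_B) and AP arthritic rats after 34 days of stimulation (MS_A), a needle being inserted and turned through the skin of the back and leg. This is called acupuncture in the labels, and the match of the codes is a reading made here. Arthritis was raised by injecting bovine type II collagen in Freund's adjuvant with a booster. MTXAP, arthritic rats given methotrexate with the stimulation (3 arrays), is not in the difference and enters the fit only through the estimate of the spread. Neither arthritic nor healthy rats without stimulation were sampled at day 34 in this series, so the course of the disease and the time in the animal house cannot be told apart from the stimulation. The study's first experiment did sample such groups at day 34, but its arrays are not used here. The design text gives 3 replicates for each group whereas RA has 2 arrays, and the labels do not say why.

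Mononuclear cells are the lymphocytes and monocytes that stay above a density gradient, and such preparations also carry platelets and young red cells. Platelets have no nucleus but keep RNA from the megakaryocyte, the marrow cell that sheds them, and at a wound they adhere, aggregate and release chemokines and growth factors. T cells, B cells and natural killer (NK) cells have high levels of RNA processing and translation genes, which include the splicing factors and ribosomal proteins. In bulk samples, fewer cells of a type and less RNA per cell cannot be told apart. Defining markers were uneven in brightness. On their dimmest arrays those of T cells ranged from the percentile 51.8 of all probe sets (Cd28) to 98.5 (Cd3g), NK cells from 54.2 (Ncr1) to 96.4 (Nkg7), platelets from 66.3 (Gp5) to 99.8 (Pf4), red cells from 4.1 (Epb42) to 92.4 (Hbb) and neutrophils from 21.6 (Cxcr2) to 98.1 (S100a9). No probe set with 1 symbol was found for Cd79a of B cells, Gp1bb of platelets, Hba-a2 of red cells, or Mpo and Elane of neutrophils.

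The platelet genes lead the results, and the promoters of 2 of them are shown because they hold letters that megakaryocyte factors are known to bind. Windows of 300 bases (250 before to 50 after the start of the gene) were taken from RefSeq, build GRCr8, which held one for 15 of the 21 platelet genes measured. Capitals mark the GATA motif AGATAA or the ETS motif CCGGAAGT on either strand. Rgs18, a brake on G protein signals in platelets, lies at chr13:59066293-59066592 (- strand), and Itga2b, the alpha chain of the platelet fibrinogen receptor, at chr10:87925784-87926083 (- strand). The third window belongs to Ddx39b, an RNA helicase of splicing and mRNA export at chr20:3589602-3589901 (- strand), and stands for the splicing factors on the opposite side of the results.
Rgs18: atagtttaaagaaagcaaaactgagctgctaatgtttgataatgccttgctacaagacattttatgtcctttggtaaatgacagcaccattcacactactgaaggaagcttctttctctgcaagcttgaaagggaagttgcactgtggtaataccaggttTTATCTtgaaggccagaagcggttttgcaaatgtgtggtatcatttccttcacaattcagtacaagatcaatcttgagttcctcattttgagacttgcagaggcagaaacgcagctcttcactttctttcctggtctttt
Itga2b: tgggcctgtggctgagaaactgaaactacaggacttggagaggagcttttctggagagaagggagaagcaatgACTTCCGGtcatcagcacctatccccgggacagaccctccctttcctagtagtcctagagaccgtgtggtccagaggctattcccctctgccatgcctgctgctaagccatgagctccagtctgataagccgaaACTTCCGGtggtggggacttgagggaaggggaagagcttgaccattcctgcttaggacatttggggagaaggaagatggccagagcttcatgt
Ddx39b: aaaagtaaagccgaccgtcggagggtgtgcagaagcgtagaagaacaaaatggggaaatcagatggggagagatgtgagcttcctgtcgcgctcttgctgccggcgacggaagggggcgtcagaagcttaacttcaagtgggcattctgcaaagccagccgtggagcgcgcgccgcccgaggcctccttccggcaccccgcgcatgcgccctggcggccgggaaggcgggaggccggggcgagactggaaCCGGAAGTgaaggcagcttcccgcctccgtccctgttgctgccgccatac
The GATA motif was found in 3 of 15 platelet promoters (Rgs18, Gp5 and Clec1b), 20.0%, and in 5 of 15 erythroid ones, 33.3%, against 12.2% of 27457 genes with a promoter in the table. The ETS motif was in 9 of 43 promoters of splicing factors, 20.9%, against 4.2% of all genes. Among platelet promoters it was in 1 of 15, 6.7%, that of Itga2b. None of the promoters of the 12 higher and 12 lower genes of lowest p held either motif, with 10 and 11 of them in the table. These are matches of letters and not measured binding.

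No probe set passed limma's adjusted p of 0.05 for the difference of the changes (0% of 18515), and the lowest adjusted p was 0.36. An unadjusted p under 0.05 was reached by 2423 probe sets, 13.1%, and the same model without moderation also called 0 after adjustment, with 2320 under the unadjusted threshold. At the thresholds the study used, an unadjusted p under 0.05 with at least 2-fold, there were 996 probe sets with a difference above 0, 5.38%, and 890 below 0, 4.81%, together 1886 or 10.2%. The separate changes reached those thresholds less widely: 670 probe sets (3.62%) for AP minus RA and 426 (2.3%) for HAP minus NORA, again with 0 after adjustment, and 1450 (7.83%) and 1144 (6.18%) at the unadjusted p. The median difference over all probe sets was -0.11, and it was -0.24 when each array was centred on its median, so directions are to be read against that shift. The median standard error of a difference was 0.47.

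Changes tended to run in opposite directions in arthritic and healthy rats. The signs differed at 12059 probe sets, 65.1%, and across the 18515 probe sets the correlation of AP minus RA with HAP minus NORA was -0.40. The comparisons share no array, but probe sets are not independent replicates, and the value rests in part on single arrays: it was -0.12 without NORA replicate 3 and -0.54 without NORA replicate 1, and lay between -0.42 and -0.29 without any other array. The plot of one change against the other shows platelet genes at the upper left and splicing factors at the lower right.

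**Figure D1:**
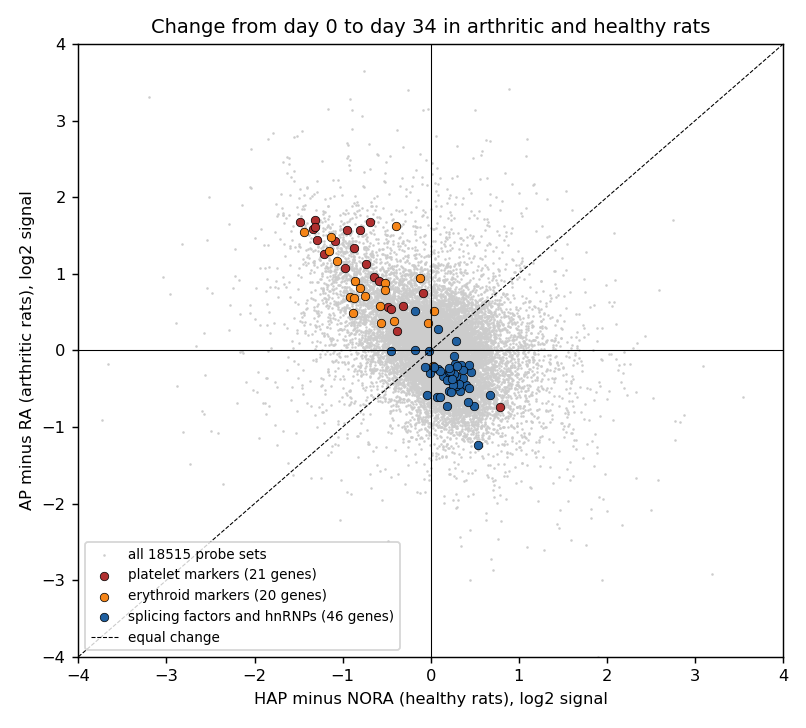
Change in healthy rats (HAP minus NORA, horizontal axis, log2 signal) and in arthritic rats (AP minus RA, vertical axis, log2 signal), 1 point per probe set in grey and 1 per gene for 3 lists in colour; the dashed line marks an equal change and 2 probe sets lie outside the axes. Platelet markers (red) have medians of -0.81 and 1.26, and splicing factors (blue) 0.24 and -0.33.

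Among the 996 probe sets with a higher difference, 978 (98.2%) had changes of opposite sign, with medians of 1.06 in arthritic and -0.86 in healthy rats. For 543 of them neither change reached the thresholds alone, and in 61 both did. Among the 890 with a lower difference, 884 (99.3%) had opposite signs, with medians of -0.79 and 0.56, neither change reaching the thresholds in 660 and both in 12. The arrays did not overlap in both comparisons, in opposite directions, for 96 of the higher and 118 of the lower probe sets, while over all probe sets 133 (0.718%) had AP entirely above RA with HAP entirely below NORA, and 240 (1.3%) the reverse. The thresholds select for such a pattern, so these counts describe the probe sets and test nothing.

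The healthy rats before therapy were the least alike. The median SD over probe sets was 0.46 in NORA, 0.20 in RA, 0.25 in HAP and 0.31 in AP. NORA replicate 1 had the lowest of the 3 NORA signals at 841 of the 996 higher probe sets (84.4%, against 30.2% of all probe sets) and the highest at 728 of the 890 lower ones (81.8%, against 40.6%). For the higher probe sets the median deviation from the mean of the 4 groups was -0.35, 0.85 and 1.14 in NORA, -0.76 and -0.50 in RA, -0.45, -0.37 and -0.08 in HAP and 0.10, 0.45 and 0.69 in AP. At these probe sets NORA replicate 1 thus lay nearer to the RA and HAP arrays than to its own group. They were chosen by a difference that uses the NORA arrays, so this is no independent sign of an unusual array. In the quality measures NORA replicate 1 had a mean correlation with the other arrays of 0.918 and spiked-in controls at 1.04 times the median array. NORA replicate 3 had the lowest mean correlation (0.855) and spiked-in controls at 1.78 times the median array. The ratio of 3' to 5' actin signal, a measure of RNA length, was 3.35 to 4.36 in HAP, 1.97 to 3.01 in NORA, 2.77 to 2.83 in RA and 2.44 to 2.69 in AP, and its part in the differences was not tested.

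With NORA replicate 1 left out, 980 probe sets passed the adjusted p, 589 higher and 391 lower, and 3576 reached the study's thresholds. With arrays weighted by their agreement with the model, 1651 passed (872 higher, 779 lower), and NORA replicates 1 and 3 had the lowest weights of all, 0.32 and 0.29 against 2.82 for NORA replicate 2. The weighted fit held 936 of the 980, 95.5% of them and 56.7% of its own calls. Both fits reduce the part of NORA replicate 1, so this overlap is no independent check. Leaving out NORA replicate 3 brought the count at the study's thresholds down to 1052 and leaving out RA replicate 1 to 995, as the plot of counts without each array shows.

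**Figure D2:**
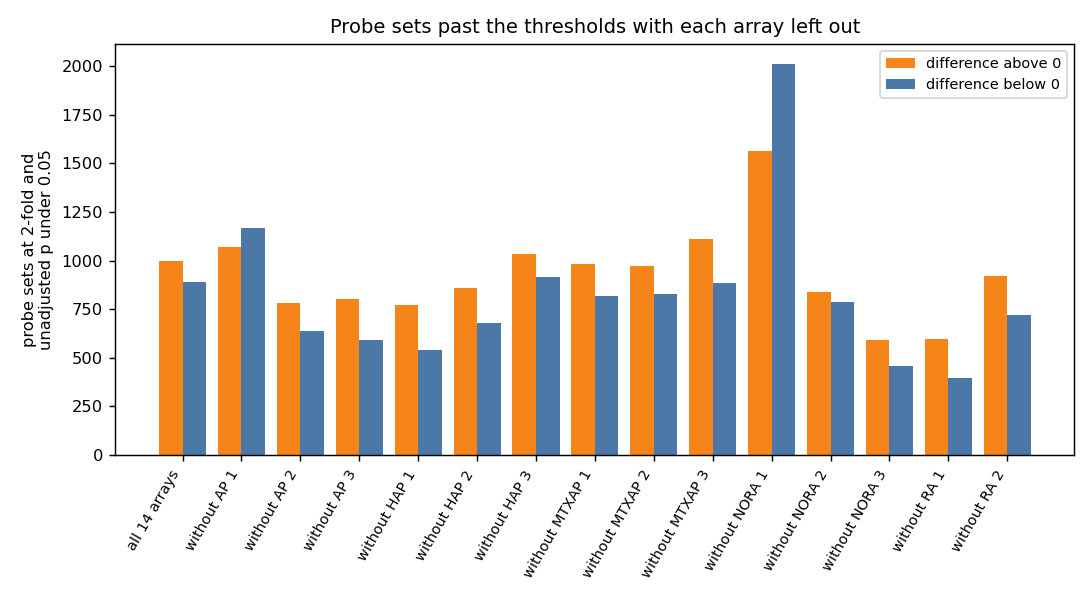
Number of probe sets at the study's thresholds (vertical axis) with a difference above 0 (orange) and below 0 (blue), for all 14 arrays and with each array left out in turn. The count is highest without NORA replicate 1, with 1562 above and 2014 below 0, and low without RA replicate 1, with 599 and 396.

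Platelet genes had the highest median difference of the 30 gene lists, except without NORA replicate 2 or AP replicate 3, where erythroid genes were as high or higher. Of 21 measured, 20 lay above 0 (43.7% of all probe sets did), with a median of 2.21 against -0.10 over all 10107 genes, and 15 reached the study's thresholds upward, against 542 higher genes in all. The single exception was Selp (P-selectin, an adhesion receptor of platelets and vessel walls) at -1.52. The list's median was 1.26 in arthritic and -0.81 in healthy rats. All AP arrays lay above both RA arrays for 18 of the 21 genes (16.2% of all probe sets did), while in no gene did the HAP arrays lie entirely below the NORA arrays (2.82% of all probe sets) or above them (6.79%).

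Rgs18, whose promoter is shown above, had log2 signals of 13.27, 14.66 and 15.21 in NORA, 13.12, 12.98 and 13.40 in HAP, 12.54 and 12.85 in RA and 13.61, 14.09 and 14.17 in AP. The AP arrays were all above RA, and HAP overlapped NORA only through NORA replicate 1, with changes of 1.26 in arthritic rats and -1.21 in healthy rats and a difference of 2.48 ± 0.71 (SE). Ppbp, the precursor of platelet chemokines stored in granules, had 11.13, 13.10 and 13.62 in NORA, 11.29, 10.69 and 11.85 in HAP, 10.29 and 10.92 in RA and 11.52, 12.54 and 12.53 in AP, and a difference of 2.93 ± 0.85. Gp9, a subunit of the receptor for von Willebrand factor, had 11.44, 13.24 and 13.76 in NORA, 11.53, 11.15 and 11.80 in HAP, 10.44 and 11.43 in RA and 12.16, 12.46 and 13.27 in AP, with 3.02 ± 1.00. The order is broadly the same in these genes: NORA replicates 2 and 3 highest, then AP, then HAP and NORA replicate 1, and RA lowest or level with NORA replicate 1. Mmrn1, a carrier of coagulation factor V in platelets, had a difference of 2.74 ± 0.91, Gp5, a further subunit of that receptor, 2.93 ± 1.21, and the ADP receptor P2ry12, the target of clopidogrel, 2.37 ± 0.91. The integrin chains of the fibrinogen receptor had smaller differences, 1.59 ± 0.64 for Itgb3 and 1.498 ± 0.76 for Itga2b, and Pf4, the most abundant platelet chemokine, 0.63 ± 0.45, with 15.69, 15.53 and 16.67 in NORA, 15.59, 15.58 and 15.58 in HAP, 15.02 and 15.57 in RA and 15.71, 15.68 and 15.26 in AP. Adjusted p was 0.36 to 0.52 for these genes in limma's fit over all probe sets. In the weighted fit 16 of the 21 passed the adjusted p (8.92% of all probe sets), and 12 of 21 passed without NORA replicate 1 (5.29%). Both settings reduce the part of NORA replicate 1, so the 2 counts are not independent of each other.

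The mean deviation of the platelet list from its average was -0.68, 0.91 and 1.17 in NORA, -0.29, -0.51 and -0.12 in HAP, -1.02 and -0.56 in RA and -0.04, 0.31 and 0.63 in AP. The arthritic arrays did not overlap, and the healthy ones overlapped through NORA replicate 1 alone. MTXAP arrays, which the difference does not use, lay at 0.42, 0.43 and -0.64. The median of the list stayed above 0 in all 25 settings tried, from 1.84 without NORA replicate 2 to 2.93 without NORA replicate 1, and was 1.89 without NORA replicate 3. Settings that alter only the filter, the moderation or the MTXAP arrays leave the median at 2.21.

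Erythroid genes had the next highest median, 1.42, with 19 of 20 genes above 0 (4394 of all 10107 genes were). At the study's thresholds the list had 2 higher genes, against 5.36% of all genes, too few to set it apart by that count. Its mean deviation was 0.09, -0.14 and 2.19 in NORA, -0.11, 0.16 and 0.15 in HAP, -0.93 and 0.12 in RA, 0.54, 1.03 and -0.38 in AP, and down to -4.04 on MTXAP replicate 3, which widens the estimate of the spread. Rhag, a membrane protein of the Rh complex on red cells, had 8.18, 10.003 and 10.53 in NORA, 8.47, 7.89 and 8.03 in HAP, 7.70 and 7.98 in RA and 8.80, 9.73 and 9.62 in AP, and a difference of 2.99 ± 0.87. Gata1, the transcription factor of the erythroid and megakaryocyte lines, had 2.23 ± 0.93, with 8.01, 9.52 and 10.51 in NORA, 8.13, 8.22 and 8.50 in HAP, 6.98 and 8.24 in RA and 8.42, 9.07 and 8.86 in AP. Both have the order of arrays seen in the platelet genes, with NORA replicates 2 and 3 high. Alas2, the first enzyme of heme synthesis in red cells, had 0.92 ± 2.81, and the anion exchanger Slc4a1 1.31 ± 2.96, with errors larger than the differences. Hbb, the beta chain of haemoglobin, was the gene below 0, at -0.23 ± 1.28. The median of the list was 0.65 without NORA replicate 3, 1.68 without NORA replicate 1 and up to 2.14 without RA replicate 2.

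**Figure D3:**
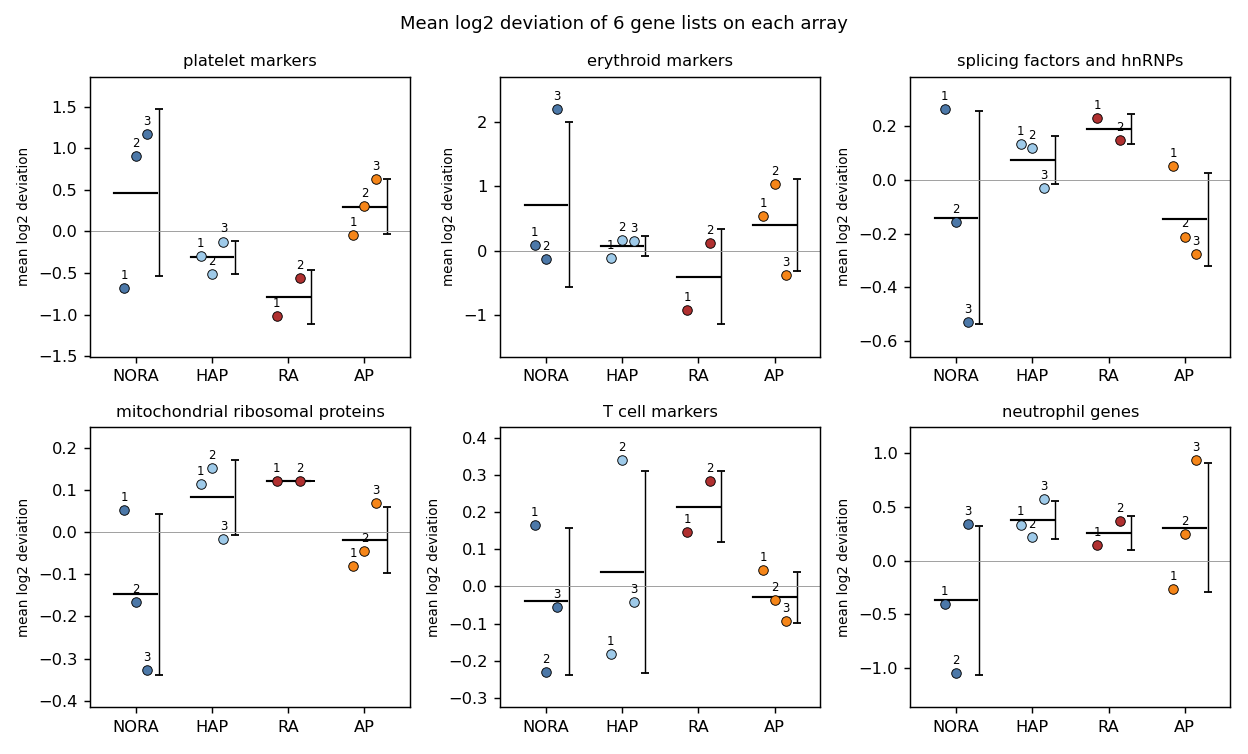
Mean log2 deviation of the genes of 6 lists from their average over the 14 arrays (vertical axis), 1 point per array with its replicate number, in NORA, HAP, RA and AP; bars are group means and whiskers 1 SD (n = 2 in RA, otherwise 3). Platelet markers are low in RA (-1.02 and -0.56) and in NORA replicate 1 (-0.68) and high in the other NORA arrays (0.91 and 1.17).

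The 12 genes with the lowest p among bright probe sets of higher difference had differences of 1.49 to 3.94, each with an adjusted p of 0.36. All 12 had AP entirely above RA, and 7 also had HAP entirely below NORA (0.718% of all probe sets did both). Picking genes by the p of the difference favours such separation, so these counts test nothing. Several of the 12 regulate small GTPases or kinases. Rasgrp3, an exchange factor that activates Ras and Rap, had 10.79, 12.74 and 12.20 in NORA, 10.55, 10.13 and 10.21 in HAP, 9.34 and 10.15 in RA and 10.88, 11.71 and 11.96 in AP, so that neither pair of groups overlapped, and a difference of 3.38 ± 0.68 (SE). Dennd2c, an exchange factor for Rab GTPases of vesicle traffic, had 9.88, 11.83 and 11.85 in NORA, 9.46, 9.24 and 9.97 in HAP, 8.54 and 9.34 in RA and 10.86, 11.22 and 11.68 in AP, with a difference of 3.94 ± 0.85, HAP replicate 3 lying within the NORA range. Arhgap28, which switches off RhoA, had 3.86 ± 0.94.

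Gsk3b, a kinase that restrains beta-catenin and glycogen synthesis, had 10.001, 11.05 and 11.34 in NORA, 9.25, 9.41 and 9.51 in HAP, 9.73 and 9.87 in RA and 10.06, 10.43 and 10.87 in AP. Its change was larger in healthy rats, -1.41 against 0.65, and its difference was 2.06 ± 0.48. Ubash3b, a phosphatase that dampens Syk signals in platelets and lymphocytes, had changes of 1.24 in arthritic rats and -1.15 in healthy rats and a difference of 2.39 ± 0.57. Snn (stannin), a small membrane protein, differed from the rest in its arrays: 10.26, 10.05 and 10.17 in NORA, 9.62, 9.57 and 9.51 in HAP, 9.28 and 9.08 in RA and 10.41, 10.20 and 9.62 in AP. The 3 NORA arrays lay close together, NORA replicate 1 was the highest of them, and the difference was 1.49 ± 0.31.

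Of the other higher genes, Prtfdc1, a phosphoribosyltransferase domain protein, had 3.44 ± 0.78, C1galt1, which builds the core of O-linked sugars on membrane glycoproteins, 2.54 ± 0.63, Agpat5, an acyltransferase of phospholipid synthesis, 1.90 ± 0.45, and Smim3, a small membrane protein, 1.96 ± 0.47. Slc25a13, the aspartate and glutamate carrier of mitochondria, had the smallest part from healthy rats of the 12, with 1.62 in arthritic rats and -0.34 in healthy rats, from 9.22, 9.30 and 9.64 in NORA, 8.78, 8.82 and 9.53 in HAP, 8.78 and 7.94 in RA and 9.90, 9.71 and 10.33 in AP, and a dimmer probe set had a difference of 0.33. Usp9x, a deubiquitinase, had 2.52 ± 0.61 on its named probe set and 0.80, 0.54 and -0.08 on its 3 others.

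The 12 lower genes had smaller differences, -1.68 to -1.10, with the same adjusted p of 0.36. Of these, 11 had AP entirely below RA, 5 had HAP entirely above NORA, and 4 (Cxcr4, Eml4, Abt1 and Dek) had both, against 1.3% of all probe sets. As for the higher genes, the choice by p favours such separation and the counts test nothing. Cxcr4, the receptor that holds lymphocytes in the marrow and lymph nodes through Cxcl12, had 14.05, 13.40 and 13.39 in NORA, 14.27, 14.37 and 14.14 in HAP, 14.29 and 14.10 in RA and 13.83, 13.28 and 13.22 in AP. The groups did not overlap in either comparison, and the difference was -1.40 ± 0.37. Its 2 other probe sets gave -1.48 and -1.08. Eml4, a microtubule-binding protein, had 9.77, 9.80 and 8.84 in NORA, 10.51, 10.20 and 10.04 in HAP, 10.70 and 10.27 in RA and 9.75, 9.39 and 9.61 in AP, and a difference of -1.68 ± 0.45, its other probe sets giving -1.19 and -0.32. Dek, a chromatin protein abundant in dividing cells, had 9.08, 8.95 and 8.77 in NORA, 9.39, 9.62 and 9.52 in HAP, 10.20 and 9.71 in RA and 9.58, 9.50 and 9.02 in AP, with -1.17 ± 0.32, and NORA replicate 1 close to the other NORA arrays, and -0.54 on a brighter probe set. Abt1, a nucleolar protein that assists basal transcription, had -1.10 ± 0.30.

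**Figure D4:**
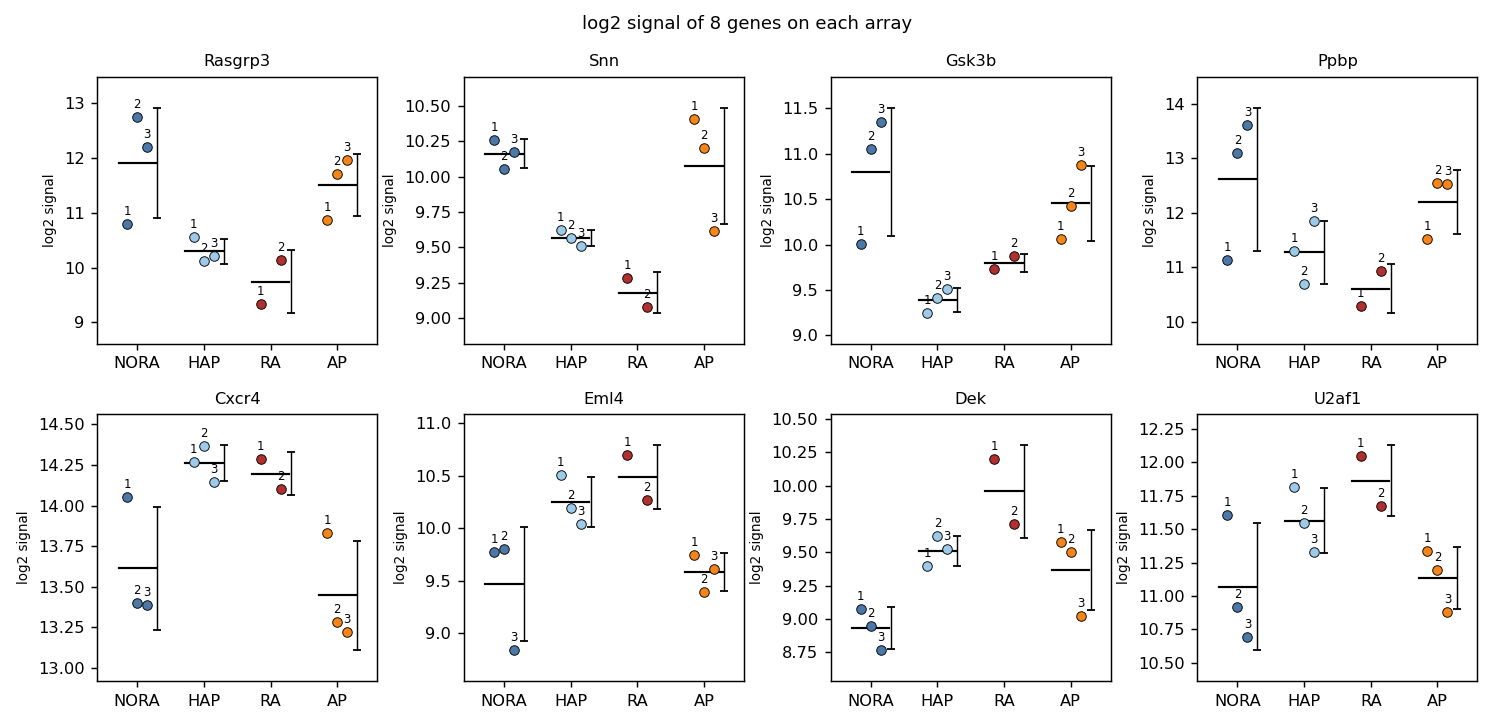
log2 signal (vertical axis) of 4 genes with a higher difference (Rasgrp3, Snn, Gsk3b and Ppbp, top row) and 4 with a lower difference (Cxcr4, Eml4, Dek and U2af1, bottom row), 1 point per array with its replicate number; bars are group means and whiskers 1 SD (n = 2 in RA, otherwise 3). In the top row AP lies above RA and HAP mostly below NORA, with differences of 3.38, 1.49, 2.06 and 2.93, and in the bottom row the order is turned, with -1.40, -1.68, -1.17 and -1.22.

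Of the other lower genes, Mnt, a repressor that opposes Myc, had -1.52 ± 0.38, with -1.16 in arthritic rats and 0.36 in healthy rats. Dnttip2, a nucleolar protein, had -1.36 ± 0.33 but -0.18 and -0.55 on 2 dimmer probe sets. Ing3, a subunit of a histone acetyltransferase complex, had -1.64 ± 0.46 and 0.23 on another probe set, and Abraxas2, the scaffold of a deubiquitinase complex, -1.46 ± 0.39. Kcnn4, the potassium channel opened by calcium in activated lymphocytes, had 10.72, 9.72 and 10.12 in NORA, 10.76, 10.74 and 10.49 in HAP, 10.42 and 10.83 in RA and 9.85, 9.49 and 9.96 in AP, with -1.33 ± 0.38. Sit1, an adaptor that tempers the T cell receptor, had 11.66, 10.50 and 11.02 in NORA, 11.84, 11.78 and 11.34 in HAP, 12.04 and 12.24 in RA and 11.42, 11.12 and 10.68 in AP, with -1.67 ± 0.48. Zdhhc17, a palmitoyltransferase, had -1.57 ± 0.43. Rap1b, a GTPase that activates integrins, cannot be given 1 direction, since the named probe set had -1.56 ± 0.44 and a brighter one 0.80.

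Splicing factors and hnRNPs, the proteins that cut introns from new transcripts, stood lowest among the RNA and protein synthesis lists. Of 46 genes 41 lay below 0, with a median difference of -0.59, made of -0.33 in arthritic and 0.24 in healthy rats, and 4 reached the study's thresholds downward, against 373 of all genes. AP lay entirely below RA in 27 of the 46 (19.7% of all probe sets), and HAP entirely above NORA in 2 (6.79%). The 5 genes above 0 were Srsf9, U2af2, Srsf6, Srsf3 and Sf3b3. U2af1, which recognises the end of introns, had 11.61, 10.92 and 10.69 in NORA, 11.82, 11.54 and 11.33 in HAP, 12.05 and 11.68 in RA and 11.34, 11.20 and 10.88 in AP, with a difference of -1.22 ± 0.39. Ddx39b, whose promoter is shown above, had 10.31, 10.21 and 9.93 in NORA, 10.71, 10.68 and 10.42 in HAP, 10.61 and 10.62 in RA and 10.25, 10.40 and 10.33 in AP, so that neither pair of groups overlapped, with -0.74 ± 0.25. Hnrnpd, a regulator of mRNA decay, had -1.09 ± 0.45, and Snrpa, a protein of the U1 particle, -1.24 ± 0.52. The median of the list ran from -0.80 without NORA replicate 1 to -0.40 without NORA replicate 3, and its mean deviation was 0.26, -0.16 and -0.53 in NORA, 0.13, 0.12 and -0.03 in HAP, 0.23 and 0.15 in RA and 0.05, -0.21 and -0.28 in AP.

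Mitochondrial ribosomal proteins had a median of -0.35, with 56 of 68 genes below 0 and 2 at the study's thresholds. Mrpl4 had -0.94 ± 0.34, from 10.64, 10.03 and 9.87 in NORA, 10.61, 10.59 and 10.33 in HAP, 10.67 and 10.57 in RA and 10.08, 10.09 and 9.86 in AP, and Mrps9 -1.04 ± 0.41. Cytosolic ribosomal proteins lay below 0 in 39 of 41, the others being Rpl39 and Rps29, but their median of -0.22 was close to the -0.10 of all genes and none reached the thresholds. Rps15a had -0.91 ± 0.41, Rps13 -0.76 ± 0.33. Proteasome subunits had a median of -0.34 with 35 of 39 below 0 (Psmf1, Psmd10, Psmd1 and Psmd4 were above), and AP entirely below RA in 15 (19.7% of all probe sets). Psme1, an activator of the proteasome, had -0.64 ± 0.27. Heat shock genes had -0.39 with 22 of 28 below 0, Hspa5, the chaperone of the endoplasmic reticulum, at -0.98 ± 0.48 and Hspa4, a partner of Hsp70, on the other side at 1.31 ± 0.50. Oxidative phosphorylation had -0.18, 48 of 69 below 0, with Cox5a of cytochrome oxidase at 1.30 ± 0.44 and Ndufv1 of complex I at -0.60 ± 0.25.

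T cell markers had a median of -0.45, with 16 of 21 genes below 0 (5713 of all 10107 genes were). At the study's thresholds 2 were lower, 9.52% against 3.69% of all genes, and AP lay entirely below RA in 10 (19.7% of all probe sets). The genes above 0 were Cd4, Bcl11b, Cd8b, Lck and Cd5, of which Lck was below 0 with quantile-normalized arrays and Cd5 with centred ones. Cd4, which marks helper T cells, had the largest difference of the list in size, 2.04 ± 1.04, on a dim probe set with a mean log2 signal of 6.57. Cd2, an adhesion receptor of T and NK cells, had 11.64, 11.22 and 11.10 in NORA, 11.58, 11.75 and 11.54 in HAP, 12.29 and 12.07 in RA and 11.66, 11.66 and 11.65 in AP, with a difference of -0.83 ± 0.31. Lef1, which controls genes of naive T cells, had 13.47, 12.56 and 11.67 in NORA, 12.76, 13.29 and 12.62 in HAP, 13.14 and 13.19 in RA and 12.61, 11.38 and 12.20 in AP, with -1.42 ± 0.62, and Cd247, the zeta chain of the T cell receptor, had -1.08 ± 0.48. The CD3 chains were smaller, -0.70 ± 0.34 for Cd3g, -0.56 ± 0.31 for Cd3e and -0.69 ± 0.40 for Cd3d. AP lay below RA in each of these, whereas the HAP and NORA arrays overlapped.

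NK and cytotoxic cell genes had a median of 0.40, 12 of 20 above 0 and 2 at the thresholds upward (5.36% of all genes were). The median was 0.15 without NORA replicate 2 and 0.86 without AP replicate 1. Ncr1 (NKp46), an activating receptor of NK cells, had 7.21, 9.25 and 9.43 in NORA, 7.61, 8.95 and 8.29 in HAP, 8.45 and 8.31 in RA and 9.12, 10.18 and 10.27 in AP, with a difference of 1.82 ± 0.81. Xcl1, a chemokine of activated NK and T cells that attracts dendritic cells, had 4.33 ± 1.42, but its signals of 7.16, 8.67 and 8.55 in NORA, 5.87, 6.98 and 6.95 in HAP, 6.63 and 4.02 in RA and 6.59, 10.34 and 7.45 in AP are spread and partly under the array median signals of 104 to 149. Perforin (Prf1) had 0.72 ± 0.52 and granzyme B (Gzmb) 0.87 ± 0.78, both with errors near the size of the difference. The other defining markers of NK cells were Klrb1a at 0.81 ± 0.51, Klrd1 at 0.32 ± 0.46 and Nkg7 at -0.16 ± 0.51. Of the 20 genes of the list 8 lay below 0. B cell markers had a median of 0.04 and monocyte markers of 0.05, each turning below 0 when arrays were centred on their medians, with 0 and 1 genes under an unadjusted p of 0.05.

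Neutrophil genes had a median of -0.97, made by the healthy rats (0.91 against 0.04 in arthritic rats), with 10 of 11 genes below 0, Mmp9 excepted, and none at the thresholds. The median was the lowest of all lists, but it was -0.48 with the pseudocount of 16 and -0.51 without AP replicate 1, and in both settings, as without RA replicate 2, another list was lower. S100a9, a calcium-binding protein released in inflammation, had 13.87, 13.01 and 14.38 in NORA, 14.96, 14.35 and 14.61 in HAP, 14.52 and 14.55 in RA and 14.14, 13.71 and 14.96 in AP, and a difference of -1.16 ± 0.66. Csf3r, the receptor for granulocyte colony stimulating factor, had 9.75, 10.23 and 10.29 in NORA, 11.43, 10.67 and 11.21 in HAP, 10.91 and 11.30 in RA and 10.67, 10.35 and 12.41 in AP, with HAP above NORA throughout and -0.97 ± 0.68. MHC class II genes had -0.56, from -0.82 without RA replicate 2 to -0.30 without RA replicate 1, with 7 of 8 below 0, RT1-Ba at -1.24 ± 0.84 and RT1-Db1 at -0.90 ± 0.61, their activator Ciita being the one above, at 0.82 ± 0.46.

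Inflammatory cytokines and chemokines had a median of -0.16, above 0 only without HAP replicate 3, with 2 of 24 at the thresholds, both lower. Ccl3, a chemokine of activated monocytes and T cells, had 9.74, 10.62 and 10.44 in NORA, 11.86, 11.02 and 11.18 in HAP, 10.77 and 10.89 in RA and 10.79, 10.83 and 10.33 in AP, so that HAP lay above NORA and AP overlapped RA, with a difference of -1.27 ± 0.45. Il1r2, the decoy receptor of interleukin 1, had 10.93, 10.29 and 9.72 in NORA, 11.76, 11.33 and 11.05 in HAP, 11.99 and 11.08 in RA and 11.03, 8.74 and 11.47 in AP, with -2.19 ± 0.93. Immediate early genes had a median of -0.28, 23 of 26 higher in HAP than in NORA by their means (59.6% of all probe sets were) and 16 of 26 higher in AP than in RA (49.2%). Tnfaip3, which limits NF-kB, had -0.66 ± 0.27, and Nfkbia, its inhibitor, -1.004 ± 0.56. Interferon response genes had 0.15, above 0 except without AP replicate 3, and none had an unadjusted p under 0.05, Gbp2 having the lowest of them with 1.46 ± 0.73.

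The lists that the study used for responses to injury had medians of -0.04 to 0.41, of which EMT.T2 lay farthest from that of all genes. Early mechanotransduction (Mec. E.) had 0.24 over 25 genes, early healing (Heal E.) -0.00 over 55, epithelial-mesenchymal transition (EMT) 0.14 over 172, its wound type (EMT.T2) 0.41 over 50, wound healing 0.16 over 206, response to wounding 0.10 over 395 and inflammation -0.04 over 287, against -0.10 for all 10107 genes. At the study's thresholds the wound healing list had 33 genes higher and 0 lower, EMT 20 and 2, response to wounding 51 and 8, and inflammation 18 and 10. As shares of these lists the higher genes were 16.02%, 11.6%, 12.9% and 6.27%, against 5.36% of all genes, and the lower ones 0%, 1.16%, 2.03% and 3.48%, against 3.69%. Early healing had 7 higher and 4 lower (12.7% and 7.27%), early mechanotransduction 2 and 1 (8.0% and 4.0%) and EMT.T2 7 and 0 (14.0% and 0%). The wound healing list holds 15 of the 21 platelet markers, and its median was 0.10 over the 191 genes left once platelet and erythroid markers were taken out. The list for response to wounding also holds 15 of them and came to 0.04 in the same way. The counts at the thresholds include the platelet markers.

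In the EMT lists Cald1 (caldesmon), which binds actin and myosin, had 9.59, 11.91 and 11.999 in NORA, 9.53, 9.36 and 10.25 in HAP, 9.18 and 9.601 in RA and 10.80, 11.23 and 11.77 in AP, with a difference of 3.33 ± 0.83 (SE). F11r, a junction protein also found on platelets, had 2.65 ± 0.90, and Gng11, a G protein subunit, 2.30 ± 0.84. In wound healing, Cpq, a plasma carboxypeptidase, had 2.79 ± 0.65, with 8.09, 9.46 and 9.93 in NORA, 7.79, 7.66 and 8.42 in HAP, 7.02 and 7.57 in RA and 8.50, 8.81 and 9.32 in AP. Serpine2, an inhibitor of thrombin, had 2.55 ± 0.73. It is dim, with 5.31 and 4.89 in RA, 6.53, 6.40 and 6.60 in HAP and 5.75 in NORA replicate 1, all under the array medians. Thbs2, a matrix protein, had 4.17 ± 1.19 and Jam3, a junction protein, 4.22 ± 0.87, at log2 signals as low as 3.36 and 3.35, well under the array medians. Among regulators of the cytoskeleton (36 genes, median 0.04, which turned below 0 with centred or quantile-normalized arrays) 4 reached the thresholds, all higher: Mylk (myosin light chain kinase) 2.30 ± 0.94, Rac1 1.68 ± 0.71, the kinase Src 1.54 ± 0.39 and Actn1 (alpha-actinin) 1.38 ± 0.47. Mylk had 12.25, 13.98 and 14.65 in NORA, 12.35, 12.68 and 12.83 in HAP, 11.65 and 12.41 in RA and 12.99, 13.49 and 13.52 in AP, and Rac1 13.26, 14.50 and 15.32 in NORA, 13.61, 13.57 and 13.84 in HAP, 13.15 and 13.41 in RA and 13.96, 14.39 and 14.46 in AP, both in the order of the platelet genes. Of early mechanotransduction, Itgb1, the integrin beta chain for matrix, had 1.31 ± 0.59 and the lysosomal calcium channel Tpcn2 -1.17 ± 0.34.

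Adenosine and purinergic signalling, one of the early cues of injury, had a median of 0.22 over 25 genes with 6 at the thresholds, all higher (the median was 0.08 to 0.48 over the settings), of which P2ry12 and P2ry1 are also in the platelet list. Adk (adenosine kinase) had 11.65, 13.06 and 13.44 in NORA, 11.39, 11.74 and 11.87 in HAP, 11.38 and 11.71 in RA and 12.27, 12.60 and 12.71 in AP, with a difference of 2.03 ± 0.66. The ATP receptor channel P2rx1, present on platelets, had 2.56 ± 0.97, and Panx1, the channel through which cells release ATP, 1.45 ± 0.49. Heme degradation and antioxidant genes had 0.37 over 18 genes, which was 0.00 without NORA replicate 3 and 0.73 without NORA replicate 1, with Sod2, the mitochondrial superoxide dismutase, at 13.16, 14.54 and 14.84 in NORA, 13.23, 12.90 and 13.42 in HAP, 12.43 and 12.92 in RA and 13.79, 13.94 and 14.13 in AP and a difference of 2.27 ± 0.59, Srxn1 (sulfiredoxin) at 2.57 ± 0.79 and the iron exporter Slc40a1 at 2.53 ± 1.02. Sod1, the cytosolic enzyme, lay on the other side at -0.58 ± 0.26. In glycolysis and hypoxia (26 genes, median 0.17, below 0 without RA replicate 2), Egln3, an oxygen sensor, had 8.08, 9.65 and 9.94 in NORA, 8.12, 8.14 and 8.36 in HAP, 7.63 and 7.64 in RA and 8.87, 9.47 and 9.63 in AP, with 2.71 ± 0.64, and Bnip3, a mitophagy receptor, 1.66 ± 0.58, while Hif1a had -0.98 ± 0.40.

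Cell cycle genes had a median of 0.20 over 36 genes, below 0 without AP replicate 2, and 3 mitotic genes at the thresholds. Cenpf, a kinetochore protein, had 7.16, 7.03 and 8.34 in NORA, 6.04, 6.30 and 5.65 in HAP, 6.18 and 6.22 in RA and 6.97, 6.83 and 6.61 in AP, with a difference of 2.11 ± 0.53 and no overlap in either comparison. Bub1b, a kinase of the spindle checkpoint, had 3.48 ± 0.90, almost all from HAP arrays at 2.56, 3.50 and 3.81 against 7.55, 5.62 and 7.68 in NORA, and Bub1 had 1.70 ± 0.56. Cenpf, Bub1b and Bub1 are dim, with most of their signals near or under the array medians. TGF-beta genes had -0.36 over 21 genes, with Smad4, the shared partner of the pathway's signal carriers, at 11.97, 11.38 and 10.48 in NORA, 11.84, 11.83 and 11.70 in HAP, 12.03 and 11.90 in RA and 11.47, 11.09 and 11.34 in AP and a difference of -1.18 ± 0.45, Smurf1, a ligase that degrades them, at -1.10 ± 0.49 and Ltbp1, which stores the latent ligand, at 1.93 ± 0.87.

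**Figure D5:**
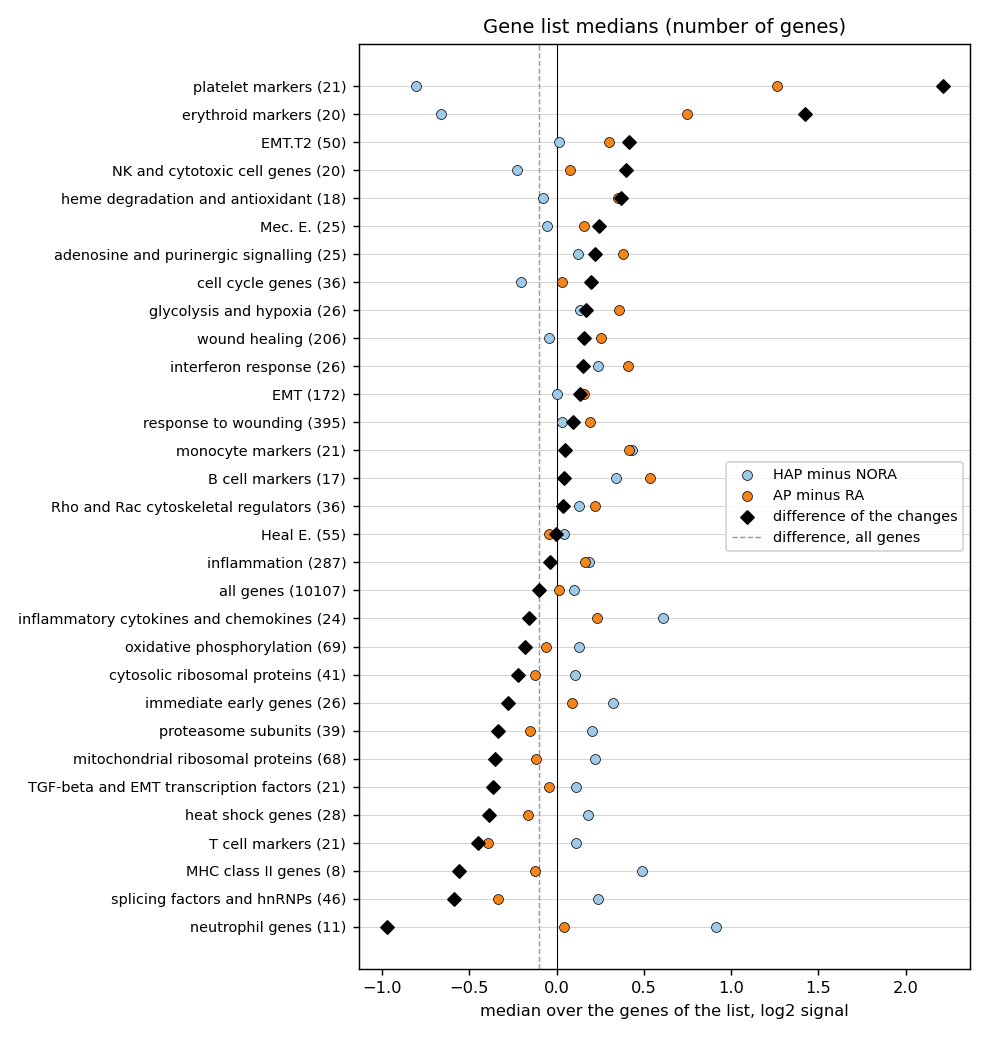
Median over the genes of each list (horizontal axis, log2 signal) of the change in healthy rats (light blue), the change in arthritic rats (orange) and the difference between them (black), with the number of genes in brackets; the dashed line is the median difference of all 10107 genes, -0.10. Platelet markers (2.21) and erythroid markers (1.42) lie at the top and splicing factors (-0.59) and neutrophil genes (-0.97) at the bottom.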

How the data were processed

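Gene expression of peripheral blood mononuclear cells was measured on 14 Affymetrix rat arrays. The authors deposited 1 intensity per probe set (MAS5 signal, linear scale, computed with affy), and each array has a trimmed mean of 500. No depth applies to arrays, and precision is set by how many there are. Samples were grouped by their titles. In R 4.3.3, limma 3.58.1 fitted log2 intensities (no pseudocount) with 1 mean per group over all 14 arrays, with empirical Bayes and Benjamini-Hochberg adjustment over the 18515 probe sets kept, two-sided, at an adjusted p of 0.05. Probe sets were named by the platform's annotation table: 20826 of 31042 have 1 symbol. Lists take 1 probe set per gene, the brightest. The 23 lists written here and 7 of the study's, like the contrast itself, were chosen with earlier results of these data known, so no list was tested. Named genes are up to 12 per direction by p (1 symbol, the study's thresholds, mean signal above the 60th percentile), up to 4 per list by p, and defining markers. Selp, and genes named as the exceptions of a list, were chosen after their values were seen. A list's mean deviation is its mean log2 signal after centring each gene on the 14 arrays. Simulated data were used to test the fit. Alternatives covered normalization, filters, weights, moderation, the replicate block and leaving out each array. Python 3.11.15 and pandas 2.3.3 were used besides.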

Additional observations from a re-analysis of the deposited data

How the results depend on the processing

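No probe set passed the adjusted p for the difference under 8 alternatives (only the 11 arrays of the contrast, quantile-normalized or centred arrays, a pseudocount of 16, no filter or a stricter one, no moderation, and the replicate block), whereas array weights gave 1651. At the study's thresholds array weights gave 3119 probe sets against 1886, and the others gave 1460 to 2505. Leaving out each array in turn gave 0 to 980 after adjustment, with 980 without NORA replicate 1 and 1 without RA replicate 1, and 995 to 3576 at the study's thresholds, the extremes being RA replicate 1 and NORA replicate 1, with 1052 without NORA replicate 3. With an RA array left out, the lone array was assumed to vary like the other groups.

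For AP minus RA the adjusted count of 0 became 1 with no filter and 0 to 4 with an array left out (4 without RA replicate 1, 2 without RA replicate 2). The 670 at the study's thresholds became 1220 with array weights, 1371 with no filter, 428 without moderation and 426 to 1100 with an array left out, 426 without RA replicate 1, 437 without AP replicate 2 and 1100 without AP replicate 1. For HAP minus NORA the adjusted count of 0 became 1 with array weights and 0 to 4 with an array left out, 4 without NORA replicate 2. The 426 at the study's thresholds became 1176 with array weights, 1147 with no filter, 262 without moderation and 287 to 1508 with an array left out, 1508 without NORA replicate 1. The cause of these shifts was not tested.

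Replicate numbers mark no shared animal. Deviations from the group means correlated at -0.42 to 0.37 between arrays of the same number (10 of 26 pairs over 0.1) and at -0.30 to 0.39 between arrays of different numbers (14 of 52), so the numbers were not taken as pairs. With the replicate block 0 probe sets passed the adjusted p and 1630 reached the study's thresholds.

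The sign of the difference held in all 552 values of the 24 genes of lowest p over 23 other fits. These genes were picked by this same difference, so the count tests nothing. Fits that alter only the filter, the moderation or the MTXAP arrays leave each difference unchanged. Among the 2342 values of the genes given with a difference (Klrb1a, Klrd1 and Nkg7 not counted), 2 had the opposite sign, both of Hbb, at 0.0793 with the replicate block and 0.0353 without NORA replicate 2 (-0.52 to 0.0353 over the arrays left out). List medians kept their sign except those of B cell, monocyte, interferon, cytokine, cell cycle, glycolysis and cytoskeletal genes, early healing, inflammation and response to wounding.

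With 2 or 3 arrays in a group, 1 array decides much of what is called, and the median standard error of 0.47 makes differences near 1 hard to tell from 0. Dim probe sets add to this, since MAS5 signals near background vary widely on the log scale. No control arm without stimulation was sampled at day 34 in this series.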
